A study of Xenopus tropicalis with 24 samples.

Results

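Homeobox genes encode transcription factors that bind DNA through a homeodomain and give cells their position and identity in the embryo. The genes described here are 53 homeobox genes of the frog Xenopus tropicalis, out of 8626 genes that the deposited RNA table or peak lists name. They were taken by symbol: Hox genes of clusters A to D and the pax, lhx, dlx, nkx, irx, meis, pbx, msx, gbx, hhex, pitx, crx, otx, ventx, emx, evx, tlx, isl and hesx families, and the numbered sine-oculis genes. The 3 genes otx2, lhx1 and ventx1.1 were set aside. The measurements come from whole embryos and do not show where in the embryo a gene was active, so "outside the organizer" records only which genes were set aside. By symbol the genes comprise 11 Hox genes, 4 ventx genes, 13 NK-linked genes (dlx, emx, hhex, msx, nkx and tlx), 4 LIM genes (isl and lhx), 8 TALE genes (irx, meis and pbx), 9 pax and paired-like genes (crx, hesx, otx, pax and pitx), 3 sine-oculis genes and gbx2.2.

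As background, Hox genes lie in clusters and specify levels of the head-to-tail axis, with Meis and Pbx proteins as partners on DNA. The ventx genes are targets of BMP signalling on the ventral side of the frog gastrula, where their products repress dorsal genes. The pax, dlx, irx, sine-oculis and LIM genes pattern the later neural plate, placodes, neural crest and sense organs. In the early embryo Nodal ligands act through the transcription factors Smad2 and Smad3. H3K4me1 and H3K27ac are histone marks of enhancers, H3K27ac also of active promoters, H3K4me3 is a promoter mark, and H3K27me3 is the mark left by Polycomb repressors.

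Wild-type embryos were collected at Nieuwkoop and Faber stages 8 and 9, which are blastula stages, and at stage 10.5, the early gastrula. Smad2/3 and the 4 histone marks were mapped by ChIP-seq at each stage, from pools of 250 embryos. RNA was profiled by 3′ RNA-seq, in which each tag comes from the poly(A) end of a transcript, with 400 ng of mRNA per library. At stage 9 the study also treated wild-type embryos with SB431542, an inhibitor of Nodal and activin receptors, from the 4-cell stage, and measured H3K4me1, H3K27ac and RNA in them. Every group held 1 library, so differences are unreplicated and no test was made. Intervals are 95% exact binomial intervals and cover counting error only.

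The RNA libraries held 4973283, 6659554 and 8030203 tags with a gene label at stages 8, 9 and 10.5 and 4656275 in inhibited stage 9 embryos. RNA levels are given as CPM, tags scaled to a labelled total of 1000000. A count of 3 tags, used as the limit that 0 tags allows, equals 0.603, 0.45, 0.374 and 0.644 CPM in that order. Among marker genes of the embryo, 5 endoderm markers summed to 8.65, 6.76, 249 and 13.1 CPM and 5 mesoderm markers to 14.5, 5.11, 466 and 14.4 CPM in the same order. The 4 organizer markers summed to 0.201, 3.3, 255 and 3.65 CPM and 6 ventral BMP targets, ventx1.2 among them, to 198, 135, 3600 and 290 CPM. Other marker groups did not follow this course: 4 maternal markers summed to 420, 320, 521 and 282 CPM and 4 ectoderm markers to 1806, 719, 2074 and 998 CPM, each also highest at stage 10.5. Of 15 homeobox genes that reached 10 CPM in either library, 14 were at least 2-fold higher at stage 10.5 than at stage 9. The share of all genes was 29%. All of these sums were also higher at stage 10.5, with no threshold applied to them. The part of these tissues in the results was not tested. In whole embryos, more cells of a type and more RNA per cell cannot be told apart. The sources used here give no depth for the ChIP libraries. List length rose with stage, from 8078 to 11314 to 23275 peaks for H3K27ac and from 5874 to 25975 to 35700 for H3K4me1.

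Most of the homeobox genes with an RNA label had 3 tags or fewer at stage 9 and more at stage 10.5. Of the 53 genes, 19 had an RNA label and 34 had none. More than 3 tags were found for 9 genes at stage 8, 7 at stage 9, 19 at stage 10.5 and 11 in inhibited embryos, and 16 genes reached 10 CPM in some library. RNA regions were called on all tracks together, so a gene could gain a label through its stage 10.5 tags alone. For example, dlx5 had 0, 0, 85 and 0 tags. These counts by stage were thus partly set by which genes had a label. A gene counted as changed at a 2-fold difference on the log2(CPM + 1) scale, where the higher of both libraries reached 10 CPM. From stage 9 to stage 10.5, 14 of 15 genes that met this minimum were higher, against 29% of 4637 genes of any kind. None was lower, against 17.1% of all genes. The median log2 ratio of the 15 genes was 4.50, and that of all genes was 0.30. For most of the 15 genes only the stage 10.5 library met the minimum, so this count was largely set by the filter.

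Among the paired-like genes, crx, whose aliases in the peak lists include otx5, was the most abundant homeobox gene at stage 10.5. Its libraries held 2 tags at stage 8, 0 at stage 9, 4691 at stage 10.5 and 15 in inhibited embryos, or 0.402, 0, 584 and 3.22 CPM. The stage 10.5 level was at least 1297-fold higher than at stage 9. The related forebrain gene hesx1 had 0, 0, 190 and 1 tags and was at least 52.5-fold higher. A different course was seen for otx1, another head gene, at 65.6, 41.3, 82.7 and 29.6 CPM. Its stage 10.5 level was 2-fold that of stage 9 (1.74 to 2.31) but lay just under the threshold on the log2(CPM + 1) scale, at 0.98. This call turned on the setting: the value was 1.08 with tags on the gene strand alone, an alternative added after seeing the data, 1.70 with the region with most tags alone, and 0.71 with TMM scaling.

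The ventral gene ventx1.2 had 0 tags at stage 8, 3 at stage 9, 1811 at stage 10.5 and 5 in inhibited embryos. This was a 501-fold difference between stages 9 and 10.5 (171 to 2430). For ventx3.2 the counts were 0, 0, 459 and 3 tags, at least 127-fold higher at stage 10.5. The lowest of the group was ventx3.1, with 0, 2, 87 and 11 tags, of which 63% over the 4 libraries lay on the strand of the gene. No RNA label is spelled ventx2.1, the gene also known as vox. The label LOC394456 carries the RefSeq gene ID of ventx2.1, and 1 of its 2 regions lies 1.68 kb downstream of that start site on the same strand. LOC394456 had 0, 5, 2388 and 78 tags, or 0, 0.751, 297 and 16.8 CPM. Read as ventx2.1, it was 396-fold higher at stage 10.5 than at stage 9 (169 to 1221), and this ventral gene was then second in abundance after crx.

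Among the TALE genes, the Iroquois gene irx2 had 0, 2, 772 and 5 tags in the 4 libraries, 320-fold higher at stage 10.5 than at stage 9 (88.3 to 2648). Its relative irx3 had 0, 0, 115 and 1 tags. Iroquois genes help to set up the neural plate. The gene irx1 had no label, but 2 unlabelled regions 3.55 to 5.01 kb downstream of its start site, on its strand, held 0, 1, 433 and 74 tags. The deposited annotation does not assign these tags to irx1. Hox partner genes were present before gastrulation: meis3, which promotes hindbrain fates in frogs, stood at 12.7, 5.26, 58.3 and 4.94 CPM. Another, pbx2, stood at 107, 62.5, 185 and 69.4 CPM, but only 29.2% of its tags lay on the strand of the gene. Its largest region, on the other strand, is at scaffold_744:440642-440750, 17.3 kb from the start site.

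Of the Hox genes, hoxd1, of the anterior end of its cluster, was the only one to reach 10 CPM. Its counts were 5, 3, 745 and 20 tags, 206-fold higher at stage 10.5 than at stage 9 (70.2 to 1001). Of the 11 Hox genes, 9 had neither a label nor, within 20 kb downstream of the start site and before the next one, any region on their strand.

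The labelled NK-linked and LIM genes stayed below the 92.8 CPM of hoxd1 at stage 10.5, and the highest of them was hhex at 52.6 CPM. The anterior endoderm gene hhex had 4, 1, 422 and 1 tags and lhx5, a gene of the anterior neural plate, had 0, 2, 228 and 10 tags. The distal-less gene dlx5 had 0, 0, 85 and 0 tags, dlx6 had 10, 11, 44 and 2 tags, and the neural border gene pax3 had 4, 17, 35 and 0 tags. The reverse course was seen for dlx2, with 61, 21, 16 and 2 tags. From stage 8 to stage 10.5 it was 6.16-fold lower (3.5 to 11.4), the 1 lower gene among 16 that met the minimum, where 12 were higher. The shares of all 4808 genes in that comparison were 24.6% lower and 14.6% higher. Most of the 16 genes met the minimum in a single library, so these counts too were largely set by the filter.

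**Figure D1:**
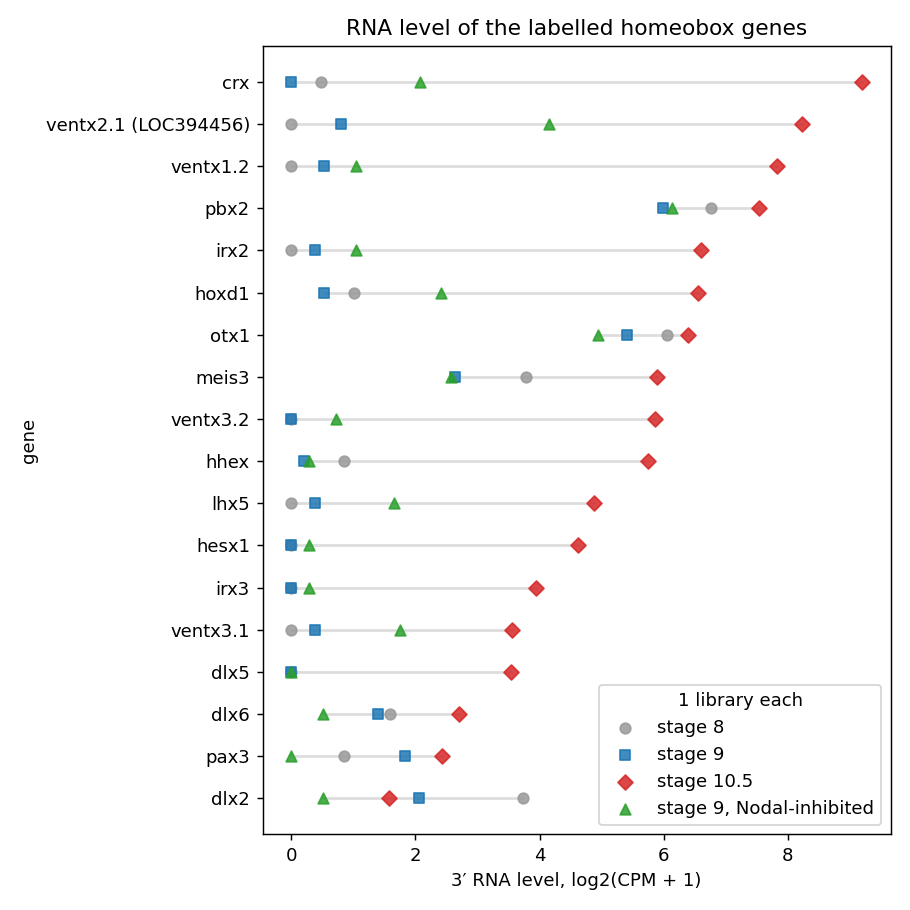
RNA level, log2(CPM + 1), of 17 labelled homeobox genes and of the label LOC394456 in the 4 libraries, 1 symbol per library. Stage 10.5 (diamonds) is the highest level of every gene drawn except dlx2.

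From stage 8 to stage 9 the 5 genes that met the minimum all had lower values, and 3 passed the threshold, among them dlx2 (3.89-fold lower, 2.34 to 6.73) and meis3 (2.41-fold lower, 1.57 to 3.75). These 3 met the minimum at stage 8 alone, so their count was largely set by the filter. The share of all 4560 genes that were 2-fold lower was 29%, and 7.35% were 2-fold higher. The median of all genes was itself -0.45 on the log2 scale and became 0.07 with TMM scaling, under which meis3, at -0.68, no longer passed.

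Under Nodal inhibition only otx1 and pbx2 met the minimum at stage 9, and neither changed 2-fold, where 20.7% of 4435 genes were higher and 16.6% lower. The otx1 level was 29.6 CPM in inhibited and 41.3 CPM in untreated embryos, a ratio of 0.718 (0.581 to 0.884). One of its 4 regions held 85 tags in untreated and 1 in inhibited embryos, and with the region with most tags alone, at 150 and 109 tags, the log2 ratio was 0.05 in place of -0.47, so the direction of this difference is not settled. LOC394456 stood at 16.8 CPM in inhibited and 0.751 CPM in untreated embryos, 22.3-fold higher (9.16 to 70.6), and would be the 1 higher gene of 3 if it is counted as ventx2.1. Several genes with few tags were on the same side: hoxd1 had 20 tags against 3, crx 15 against 0, ventx3.1 11 against 2 and lhx5 10 against 2. On the opposite side pax3 had 0 tags against 17 and dlx2 had 2 against 21. All of these inhibited levels lay under those of stage 10.5. The inhibited library has a different alignment date from the untreated one in the file header, and the sources used here do not say whether that marks a library batch.

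H3K4me1 and H3K27ac peaks lay near most of the homeobox genes at stage 8, when 9 of them had more than 3 tags. A deposited H3K4me1 peak lay within 50 kb of the start site of 40, 51 and 51 of the 53 genes at stages 8, 9 and 10.5. Over the 8164 genes named in any peak list the shares were 44.3%, 86.9% and 91.8%, so only the stage 8 share of 75.5% stood well above the background. All 86 stage 8 peaks of these genes overlapped a stage 9 peak, where 98.2% of all stage 8 peaks within 50 kb of a start site did. H3K27ac peaks lay within 50 kb of 44, 40 and 38 genes, where all genes gave 42.1%, 53.9% and 78.4%. H3K4me3 peaks lay within 50 kb of 4, 28 and 51 genes, where all genes gave 13.8%, 52.2% and 81.4%. Homeobox genes thus exceeded the background for H3K27ac at stage 8, at 83%, and at stage 9, at 75.5%. At stage 10.5 their share of 71.7% was near it. Any peak within 50 kb, whichever gene was nearest, gave 41 of the 53 genes there, an alternative added after seeing the data.

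A peak centre within 1 kb of the start site misses broad domains, so marking was also counted as a start site lying inside a peak, whichever gene the peak was assigned to. Start sites were solved from the deposited peak positions and distances, on scaffolds of the xenTro2 assembly, for 7924 genes including all 53. H3K4me1 covered the start sites of 30, 49 and 50 homeobox genes at stages 8, 9 and 10.5, against 35.4%, 69.2% and 70.5% of all genes. H3K27ac covered 34, 26 and 19, against 26.7%, 35.3% and 57.2%. The stage 9 H3K27ac peaks carry a stage 8 prefix in their names, so their stage rests on the label and header alone. H3K4me3 covered 1, 16 and 42, against 6.92%, 41.6% and 70.2%. The start site inside H3K4me3 at stage 8 was that of emx2, a forebrain gene. Coverage of start sites by H3K27ac thus went down with stage at the homeobox genes while it went up over all genes. The same did not hold for H3K27ac around these genes. Peaks within 50 kb of the 53 genes summed to 417, 328 and 807 kb at stages 8, 9 and 10.5. For the genes outside Hox the sum was 306 kb at stage 8 and 783 kb at stage 10.5. For the Hox genes it was 111 kb and 24 kb. Such sums were not taken over all genes.

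**Figure D2:**
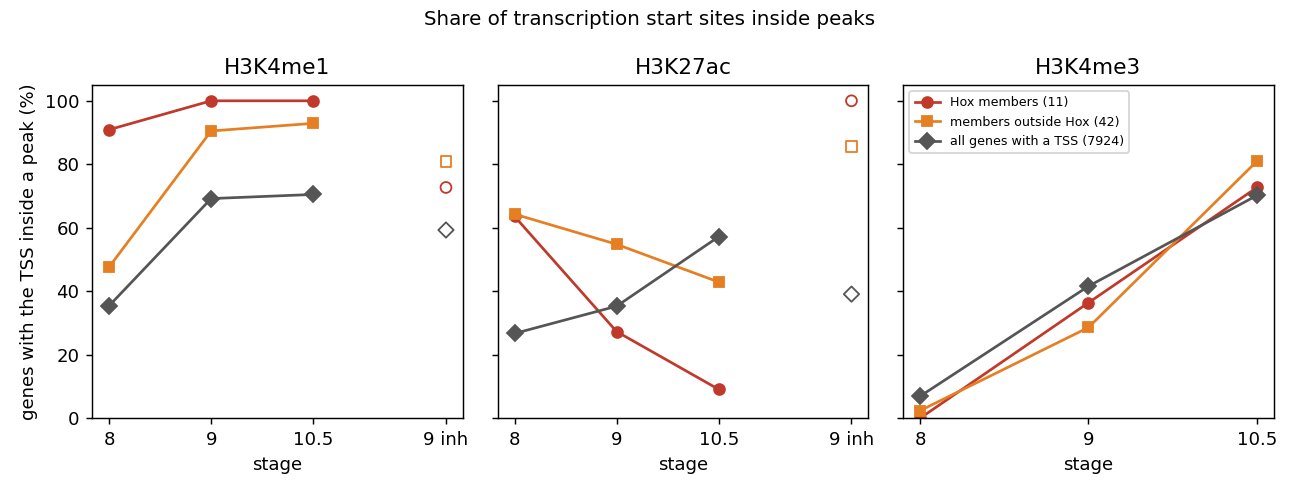
Percent of genes whose start site lay inside an H3K4me1, H3K27ac or H3K4me3 peak at stages 8, 9 and 10.5 (filled symbols, joined) and in Nodal-inhibited stage 9 embryos (open symbols), for Hox genes, the other homeobox genes and all genes. H3K27ac falls from 63.6% to 9.09% at Hox genes and from 64.3% to 42.9% at the other homeobox genes while it climbs from 26.7% to 57.2% over all genes.

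Of the 34 genes with H3K27ac over the start site at stage 8, 21, or 61.8%, no longer had it at stage 10.5. Over all genes the same held for 10.9% of 2115. The 21 genes are dlx1, dlx2, dlx6, emx2, hhex, hoxa5, hoxb3, hoxb5, hoxc8, hoxc10, hoxd8, isl2, lhx8, meis2, msx1, nkx6-1, pax2, pax3, pitx1, six2 and six6. Among them, dlx6 and hhex still had a stage 10.5 H3K27ac peak centred within 1 kb of the start site. Start sites of 13 genes were covered at both stages: crx, dlx5, hoxd1, irx1, irx2, irx3, lhx5, meis3, otx1, pax6, pbx2, ventx2.1 and ventx3.1. Coverage at stage 10.5 and not at stage 8 was seen at gbx2.2, hesx1, nkx2-8, ventx1.2 and ventx3.2, among others.

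The start sites in H3K27ac at stage 10.5 were largely those of genes with RNA at that stage. H3K27ac covered the start site of 13 of the 14 genes whose RNA was higher at stage 10.5 than at stage 9. The exception was hhex, where a stage 10.5 peak centre lay within 1 kb of the start site without the peak covering it. Among labelled genes not called higher, that of otx1 was covered. Those of dlx2, dlx6 and pax3, with 16, 44 and 35 tags at stage 10.5, were not, though a peak centre lay within 1 kb of that of dlx6. Over all genes 57.2% of start sites were covered, and shares of all genes with and without RNA were not taken. Of the 34 genes without an RNA label, 5 start sites were covered: gbx2.2, irx1, nkx2-8, pax6 and ventx2.1. The tags downstream of irx1 and under LOC394456 belong to this group of 5. At stage 8 the same counts were 10 of 14 and 20 of 34, and at stage 9 they were 10 of 14 and 14 of 34. The shares of the 2 sets were 71.4% and 58.8% at stage 8 and 92.9% and 14.7% at stage 10.5. H3K4me3 covered all 14 of the higher genes and 23 of the 34 unlabelled ones at stage 10.5, and H3K4me1 covered 13 and 32.

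**Figure D3:**
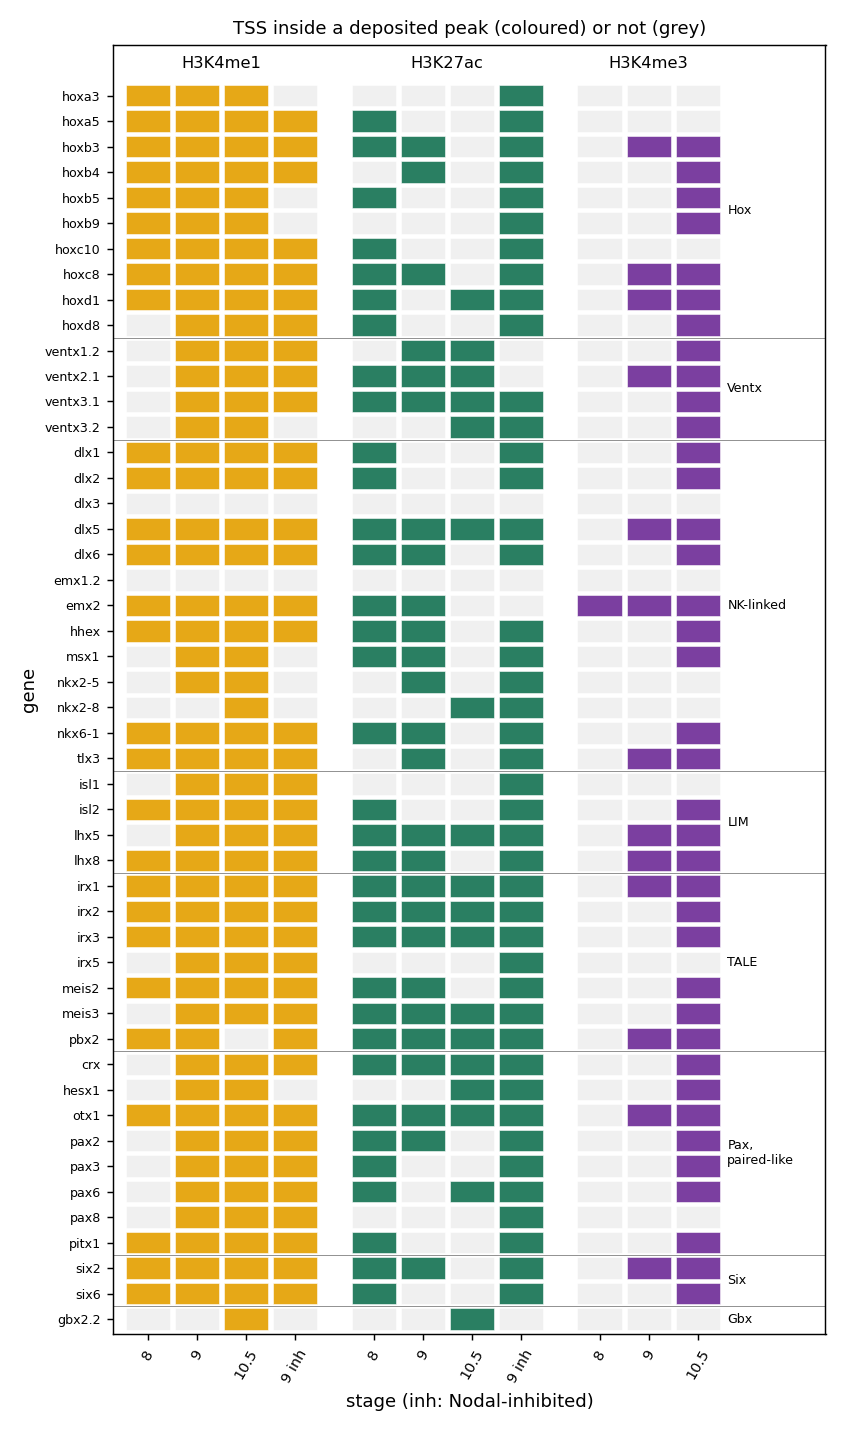
Each row is 1 of 49 homeobox genes, ordered by family, and each column 1 peak list; a coloured cell means that the start site lay inside a peak of that list. In the H3K27ac block 34, 26, 18 and 43 of the 49 cells are filled at stages 8, 9 and 10.5 and under Nodal inhibition.

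Over the HoxA, HoxB and HoxC clusters H3K27ac shrank with stage, and over every Hox cluster H3K4me1 spread from stage 8 to stage 9. Windows from 10 kb outside the first to 10 kb outside the last start site were examined. In the HoxA window of 67 kb, H3K27ac peaks covered 50.5%, 14.2% and 11.2% at stages 8, 9 and 10.5. In the HoxB window of 94.7 kb they covered 20.6%, 5.64% and 0%. In the HoxC window of 41.3 kb they covered 68.5%, 15.8% and 0%. In the HoxD window of 93.8 kb they covered 12.8%, 0% and 11.6%, and the stage 10.5 cover was a single 10.9 kb peak over hoxd1, the Hox gene with the most RNA. Of the 21 H3K27ac peaks at Hox genes at stage 8, 6 overlapped a stage 9 peak, where 78.7% of all peaks within 50 kb of a start site did. Of the 12 at stage 9, 1 overlapped a stage 10.5 peak, where 86.1% of all such peaks did.

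From stage 8 to stage 9 H3K4me1 went the other way over the same windows, and it changed less from stage 9 to stage 10.5. It covered 20.4%, 96.3% and 94.3% of the HoxA window at stages 8, 9 and 10.5, and 36.2%, 80% and 80.5% of the HoxB window. For HoxC the values were 11.5%, 93.8% and 88.5%, and for HoxD 7.77%, 51.9% and 53.9%. The peak over HoxA at stage 9, at scaffold_56:1372691-1484764 and assigned to hoxa5, was 112 kb wide and the widest of all 25975 H3K4me1 peaks of that stage. The second widest, 64.7 kb at scaffold_226:336847-401557, was assigned to hoxc10. Peaks of homeobox genes made up 21 of the 100 widest in that list. The H3K4me1 list held 5874 peaks at stage 8, far fewer than at stage 9. The stage 9 H3K4me1 library is labelled as repeated in a named pool, and the sources used here do not say whether that marks a batch. No H3K27me3 peak lay in any Hox window at any stage, but the H3K27me3 lists held only 75, 81 and 179 peaks.

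**Figure D4:**
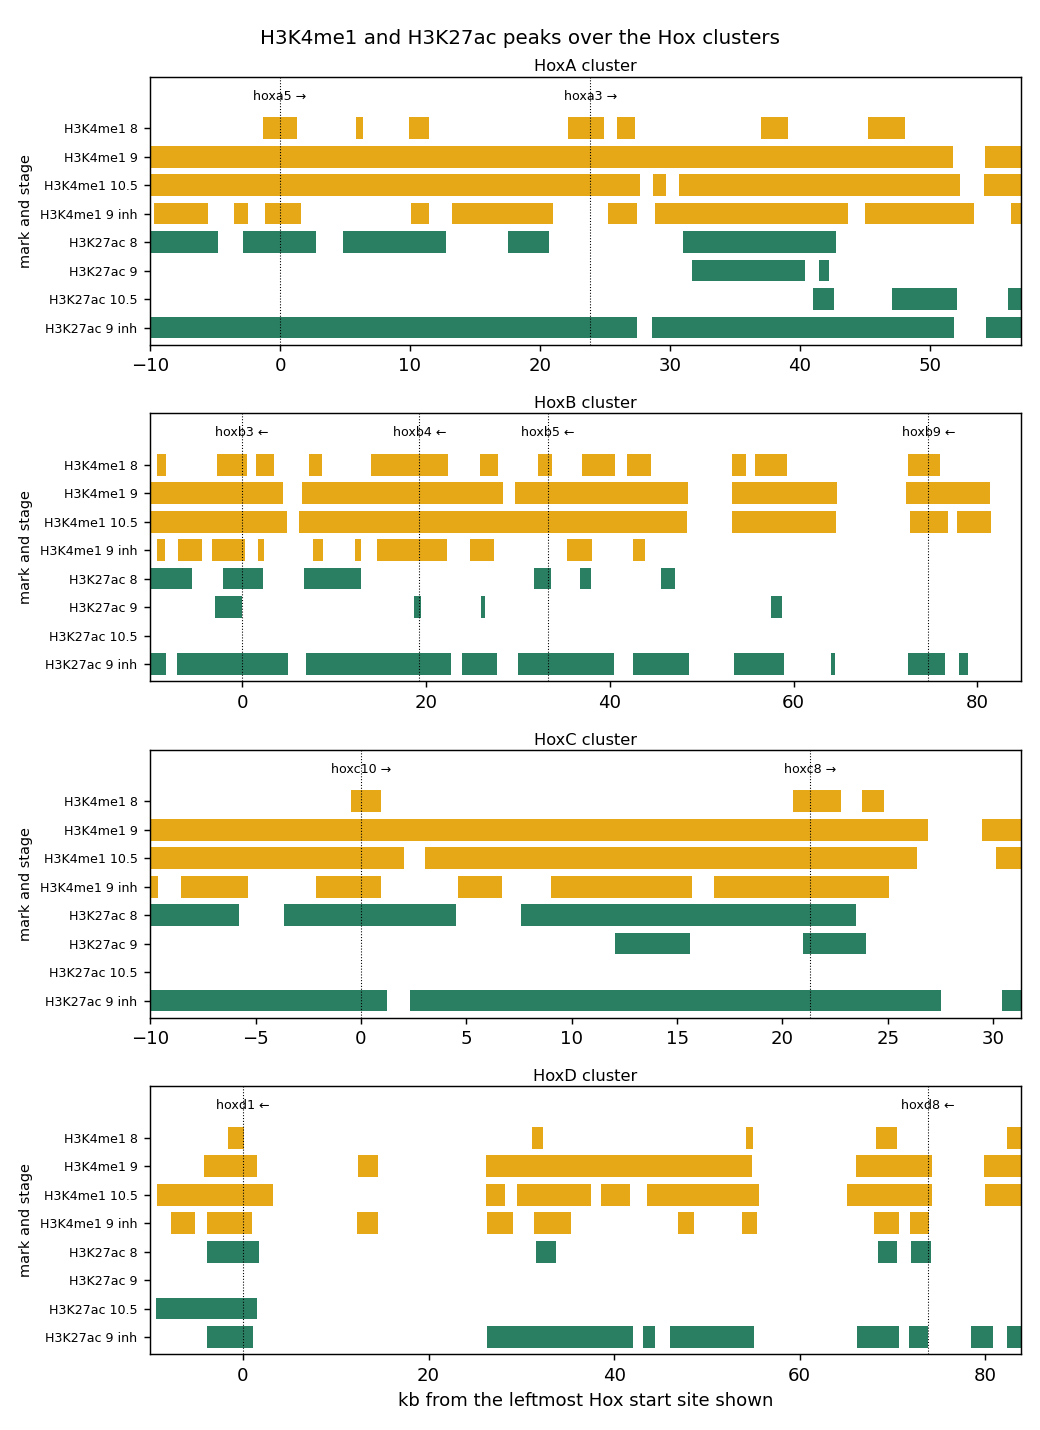
H3K4me1 (gold) and H3K27ac (green) peaks over the 4 Hox clusters at stages 8, 9 and 10.5 and in Nodal-inhibited (inh) stage 9 embryos; the x axis is distance in kb and dotted lines are start sites with the direction of transcription. From stage 8 to stage 10.5 the green cover falls over HoxA (50.5% to 11.2%) and HoxC (68.5% to 0%) but is similar over HoxD (12.8% and 11.6%). The gold bars cover more of each window at stages 9 and 10.5 than at stage 8. The inhibited H3K27ac track covers 94.6% of HoxA and 90.3% of HoxC.

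In the Nodal-inhibited lists H3K27ac covered more of each Hox window than H3K4me1 did, the reverse of the untreated stage 9 lists. H3K27ac covered 94.6%, 64.3%, 90.3% and 44.3% of the HoxA, HoxB, HoxC and HoxD windows, where the untreated stage 9 list covered 14.2%, 5.64%, 15.8% and 0%. H3K4me1 covered 64.8%, 25.2%, 57.1% and 26.2%, less than the untreated list in each window. The inhibited H3K27ac list thus resembled the untreated stage 9 H3K4me1 list, which covered 96.3%, 80%, 93.8% and 51.9% of these windows. In both of these lists dlx5 and hoxa3 were the homeobox genes without an assigned peak within 50 kb. The inhibited H3K4me1 list had a median peak width of 2004 bp, near the 2071 bp of untreated stage 9 H3K27ac. It was 1626 bp for untreated stage 9 H3K4me1 and 1788 bp for inhibited H3K27ac. In each Hox window, however, inhibited H3K4me1 covered more than untreated stage 9 H3K27ac did. The reason for these resemblances was not tested, nor was whether each inhibited list carries the right mark name. Mark names here follow the sample labels. The 3 widest H3K27ac peaks of the whole inhibited list were those of hoxc10 (38.6 kb), hoxa5 (37.5 kb) and pax3 (35.8 kb). All 11 Hox start sites lay in H3K27ac in inhibited embryos, against 3 in untreated ones. Over all 53 genes the counts were 47 and 26, where all genes gave 39.1% and 35.3%. H3K4me1 covered 42 start sites in inhibited embryos, against 59.3% of all genes. Within 50 kb, 51 of the 53 genes had an H3K27ac peak and 51 an H3K4me1 peak in inhibited embryos, where all genes gave 65.8% and 74.6%. Of the 74 H3K27ac peaks of these genes in untreated stage 9 embryos, 65 overlapped an inhibited peak, where 58.8% of all peaks within 50 kb of a start site did. Of the 34 genes without an RNA label, 29 were covered by H3K27ac in inhibited embryos. BWA and multiplexing adapters were used for untreated histone libraries, and Bowtie and no such adapters for the inhibited ones, so treatment and library preparation cannot be told apart. The inhibited H3K27ac list was also longer, with 16105 peaks against 11314.

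The broadest H3K27ac at stage 8, summed over peaks within 50 kb, belonged to hoxc10 (31.2 kb), otx1 (23.4 kb), irx1 (22.1 kb), meis3 (20.9 kb) and ventx3.1 (17.4 kb). At stage 9 the first 5 were otx1 (31.6 kb), crx (26 kb), meis3 (21.5 kb), irx1 (19.6 kb) and pax3 (19 kb). By stage 10.5 they were meis3 (75.4 kb), irx1 (65.5 kb), ventx2.1 (59.4 kb), gbx2.2 (59.1 kb) and crx (51 kb). Thus meis3 and irx1 were among the first 5 at every stage, and hoxc10 was among them at stage 8 alone.

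For H3K4me1 the first 5 at stage 8 included otx1 (15.4 kb), hoxb3 (10.9 kb), meis2 (10.8 kb) and emx2 (10 kb). After hoxa5 and hoxc10, the stage 9 order went on with pax3 (41.1 kb) and hoxd8 (38.6 kb). At stage 10.5 it was hoxd8 (62.4 kb), hoxa5 (56.6 kb), pax3 (54.2 kb), meis3 (52.4 kb) and hoxc8 (48.4 kb). Hox genes and pax3 therefore had broad H3K4me1 at a stage when their RNA was low or unlabelled. The pax3 RNA level was 4.36 CPM at stage 10.5.

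H3K4me3 was sparse at first. At stage 8 it was found within 50 kb of 4 genes, among them emx2, dlx1 and hoxb9, in peaks of 0.371 to 0.654 kb, and 2 genes, emx2 among them, had it within 1 kb, against 8.37% of all genes. At stage 9 the 14 genes with a peak centre within 1 kb, against 40% of all genes, included dlx2, dlx6, emx2, hoxc8, hoxd1, lhx8, meis2, otx1, six2, tlx3 and ventx2.1. The widest at stage 9 belonged to irx1 (9.22 kb, rank 3 of 6839 peaks) and lhx5 (8.62 kb), followed in summed width by emx2 (7.1 kb), otx1 (5.27 kb) and dlx5 (4.34 kb). In the stage 9 RNA library lhx5 had 2 tags and dlx5 had none. At stage 10.5 the count within 1 kb was 22, against 58%, and the largest summed widths were those of hoxb3 (15.8 kb), crx (15.5 kb), otx1 (12.2 kb) and ventx3.1 (11.5 kb).

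Smad2/3 binding near the homeobox genes was found at stage 10.5. Peaks lay within 50 kb of 1 gene at stage 8, 1 at stage 9 and 17 at stage 10.5, where all genes gave 1.62%, 3.52% and 5.32%. The homeobox share at stage 10.5 was 32.1%. The stage 8 site, 18 kb downstream of irx5, and the stage 9 site, 34 kb upstream of emx2, overlapped no mark of any stage. Of the 33 sites at stage 10.5, 21 lay upstream and 12 downstream of the start site, 4 within 1 kb and 10 at 10 kb or more. Their median distance was 7.27 kb, where the 624 of all 1024 sites that lay within 50 kb of a start site gave 9.12 kb. The called threshold of the Smad2/3 lists may differ between stages, since the headers call the stage 9 and 10.5 lists stricter and the stage 9 list pooled.

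The ventral gene ventx2.1 had 4 sites, at 14.2, 5.06 and 1.19 kb upstream and 4.33 kb downstream, and its neighbour ventx3.1 had 3, of which that at scaffold_266:925341-926042 ranked 53 of 1024 sites by score. For ventx1.2 the 1 site lay 0.419 kb upstream of the start site.

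Of the 3 sites of crx, all upstream, that at scaffold_481:967664-968089 ranked 42 and lay 27.2 kb away, and another lay 0.836 kb from the start site. For hhex, 2 sites lay 16.1 and 23.7 kb downstream, of which the nearer ranked 54. The remaining 2-site genes were irx1, irx3, otx1 and pbx2, with sites within 1 kb of irx3 and otx1. One site each was assigned to dlx6, gbx2.2, lhx5, meis3, pax3 and six6, among others. Of the 17 genes with a site, 8 were among the 14 with higher RNA at stage 10.5, and 5 were among the 34 without an RNA label. All genes gave 5.32%, but the shares among all higher and all unlabelled genes were not taken. A link between these sites and RNA was therefore not tested.

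All 33 sites lay in H3K4me1 peaks at stage 9, before a Smad2/3 peak was called there, and again at stage 10.5. Of the 624 sites within 50 kb of the start site of any gene, which include these 33, 81.1% and 99.4% did. At stage 8, 9 of the 33 lay in H3K4me1, or 27.3%, against 6.89% of the 624. H3K27ac peaks covered 27, 25 and 29 of the 33 at stages 8, 9 and 10.5, against 55.1%, 73.6% and 95.5%. H3K4me3 covered 0, 3 and 18, against 1.12%, 3.69% and 35.3%. As shares of the 33 sites, the H3K27ac counts were 81.8%, 75.8% and 87.9%, above the share of the 624 at stage 8, near it at stage 9 and below it at stage 10.5.

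In Nodal-inhibited stage 9 embryos 27 of the 33 sites lay in H3K4me1 and 29 in H3K27ac, against 64.3% and 67% of the 624 sites. H3K27ac was shared by both treatments at 24 sites, was found in inhibited embryos alone at 5, and in untreated embryos alone at 1, the site 11.8 kb upstream of ventx3.1. H3K4me1 was found in untreated embryos alone at 6 sites. All 33 sites lay in untreated H3K4me1, so no site could have it in inhibited embryos alone. The inhibited H3K4me1 list was also shorter, with 17162 peaks against 25975. Of the 624 sites, 81.1% lay in untreated stage 9 H3K4me1, against the 64.3% in inhibited embryos.

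The 4 ventx genes lie beside one another on scaffold 266, with ventx1.1 among them, in a window of 79.7 kb taken as for the Hox clusters. No H3K4me1 peak lay in this window at stage 8, and H3K4me1 covered 60.2% and 83.2% at stages 9 and 10.5. H3K27ac covered 66.3% at stage 8, 63.4% at stage 9 and 91.7% at stage 10.5, unlike at the Hox clusters. The 55.6 kb H3K27ac peak of ventx2.1 at stage 10.5 was the widest of these 53 genes at that stage and ranked 34 by width among all 23275 peaks. In inhibited embryos H3K27ac covered 51.5% and H3K4me1 covered 72.2%, with marks named by the sample labels. The start sites of ventx1.2 and ventx2.1, covered in untreated stage 9 embryos, lay outside the inhibited H3K27ac peaks. That of ventx3.2 was covered in inhibited embryos and not in untreated ones, and that of ventx3.1 was covered in both.

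**Figure D5:**
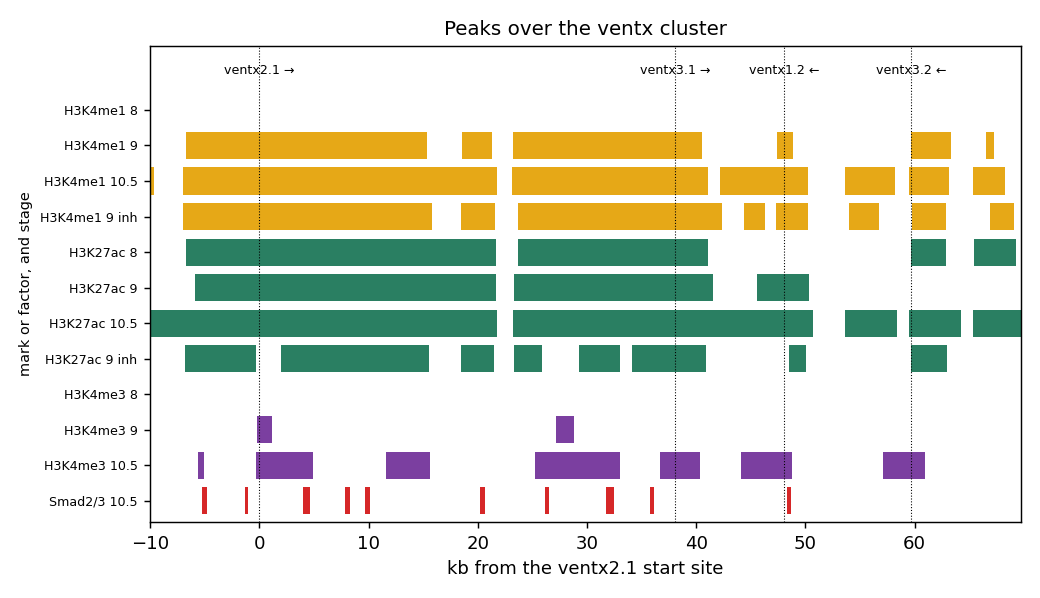
Peaks of 3 histone marks by stage and of Smad2/3 at stage 10.5 over the ventx cluster, with distance in kb from the ventx2.1 start site and start sites as dotted lines; Smad2/3 sites nearest to ventx1.1 are drawn too. H3K27ac covers 66.3% of the window at stage 8, where no H3K4me1 peak is drawn, and 91.7% at stage 10.5.

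H3K27me3 peaks were found within 50 kb of no homeobox gene at stages 8 and 9 and of 3 at stage 10.5, crx, irx1 and meis3, where all genes gave 0.159%, 0.147% and 0.563%. All had low scores, at ranks 149, 177 and 162 of 179. The meis3 peak, at scaffold_461:380354-381169, lay 0.103 kb from the centre to the start site and inside H3K4me1, H3K27ac and H3K4me3 peaks of the same stage. The crx peak overlapped the Smad2/3 site 27.2 kb upstream and the same 3 marks. The irx1 peak, 26.1 kb downstream, lay in H3K4me1 and H3K27ac. RNA of crx and meis3 was higher at stage 10.5 than at stage 9.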

How the data were processed

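The 53 genes, their families and the list of other homeobox genes were chosen with earlier results of these data known. Peak lists and 1 table of RNA regions were used as deposited, and no reads were aligned. Per the submitters' processing notes, BWA aligned the untreated histone libraries, Bowtie aligned the others, MACS2 called peaks and HOMER annotated them; the sources used here give no versions. The 3 input libraries have no peak list and were not used here. Peaks were annotated on xenTro2, per the file headers. The deposited score of a peak has no stated scale and served to rank peaks within a list only. GC content, deposited as a fraction, was read for a description only and is not reported. Nearest gene and distance from peak centre to start site are the deposited annotation. The Smad2/3 lists of stages 9 and 10.5 come from stricter calls and that of stage 9 from pooled reads, per the file headers.

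RNA values are deposited raw tag counts per region, called on all tracks together without regard to strand, per the file headers. Counts of regions with the same single-gene label were summed over both strands. A further 4 columns of per-sample values belong to no listed sample and were left out. Regions without a gene, with 29.1% to 32.6% of the tags of a library, stayed out of the totals. Folds divide one scaled count by the other and have 95% Clopper-Pearson intervals, conditional on the sum of both counts. Against 0 tags a fold is a lower bound that uses 3 tags, and with 3 tags or fewer in both libraries none is given. Ratios use a pseudocount of 1 CPM.

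Start sites and strands were solved from peak centres and signed distances, for 8230 promoters. On the solved strand lay 85.4% to 91.3% of the tags of a library. Overlap means at least 1 bp. Counts, start sites and overlaps were tested on simulated data. A RefSeq gene table of assembly UCB_Xtro_10.0 gave names only, and 52 of 53 symbols matched. Genes named with values are those with at least 10 CPM in a library, with a Smad2/3 or H3K27me3 peak within 50 kb, among the 5 with the largest summed width of H3K4me1, H3K27ac or H3K4me3 at a stage, or with H3K4me3 within 1 kb at stage 8 or 9. Others were named after their values were seen, and the results of a few genes that this rule takes are not reported here. Alternatives were other scalings (TMM from edgeR 4.0.16, median of ratios), pseudocounts, minima, regions, distances, scores and overlaps. Python 3.11.15 with pandas 2.3.3 and scipy 1.17.1 and R 4.3.3 were used.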

Additional observations from a re-analysis of the deposited data

How the results depend on the processing

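Under the alternatives tried, no log2 ratio of a gene changed sign against a called difference, and of the counts 150 stayed within 1.5 times and 21 did not. With counts scaled to all tags, lower genes numbered 1 from stage 8 to 9 and 0 from stage 8 to 10.5. Without a minimum level, 5 genes were higher and 2 lower under inhibition. Keeping only peaks at or above the median score of a list, genes with a peak within 50 kb numbered 25 for H3K27ac at stage 10.5, 1, 11 and 22 for H3K4me3 at stages 8, 9 and 10.5, 0 for H3K27me3 and 10 for Smad2/3 at stage 10.5, and within 1 kb 1, 4 and 2 for H3K4me3. Within 20 kb, 1 gene had H3K27me3 at stage 10.5 and 0 had Smad2/3 at stage 9, and within 100 kb 2 did. Within 2 kb, 38 genes had H3K4me3 at stage 10.5. The cause was not tested where the alternative does not itself keep fewer peaks or genes.

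Chosen after seeing the data were 4 alternatives. Any peak within 50 kb, whichever gene was nearest, gave 10 genes for H3K4me3 at stage 8. Start sites inside an H3K4me3 peak numbered 1 at stage 8 and 42 at stage 10.5. Matching LOC394456 to ventx2.1 gave 1 higher gene under inhibition. Tags on the gene strand alone moved pbx2 to -1.30 from stage 8 to 9 and to 1.86 from stage 9 to 10.5.

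Scaling moved the median log2 ratio of all genes. From stage 8 to 9 it was -0.45 by labelled tags, 0.07 by TMM and 0.09 by median of ratios, and 79.8%, 46% and 44.4% of changed genes were lower. From stage 9 to 10.5 it was 0.30, 0.01 and -0.02, with 37.2%, 49.8% and 51.9% lower. From stage 8 to 10.5 it was -0.21, 0.03 and 0.02, with 62.8%, 48.8% and 49.8% lower. Under inhibition it was 0.22, 0.09 and 0.00, with 44.6%, 52.3% and 57.3% lower. By median of ratios meis3 fell short from stage 8 to 9, at -0.66.

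No paired analysis was possible because every group holds 1 library, and for the same reason none was left out. At this depth 0 tags allows a level of up to 0.374 to 0.644 CPM. Called peaks depend on ChIP depth, for which the sources used here give no value.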

Other observations

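Homeobox genes outside the 53, from a list of other families, were seen beside them. Of 10 that met the minimum of 10 CPM, 7 were 2-fold higher at stage 10.5 than at stage 9 and 1 was lower. All genes gave 29% and 17.1%. The median log2 ratio of the 10 was 2.57. Most of the 7 met the minimum at stage 10.5 alone, so this count was also largely set by the filter. The caudal gene cdx2, a regulator of posterior Hox genes, had 1, 2, 1446 and 3 tags in the 4 libraries, ordered as stages 8, 9 and 10.5 and inhibited stage 9, and its relative cdx4 had 0, 0, 260 and 1. The mesendoderm gene mix1 had 0, 10, 560 and 22 tags. The gene named not stood at 28.8, 35.9, 260 and 91.1 CPM. Of the 31 other homeobox genes named in the peak lists, 3, or 9.68%, had a Smad2/3 peak within 50 kb at stage 10.5, where all genes gave 5.32%. H3K27ac lay within 50 kb of 61.3%, 61.3% and 74.2% of these 31 at stages 8, 9 and 10.5, where the 53 genes gave 83%, 75.5% and 71.7% and all genes 42.1%, 53.9% and 78.4%.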
